A study of Jaculus jaculus with 29 samples.

Results

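Mag, Mog, Cnp, Cldn11 and Ermn encode proteins of the myelin sheath and of the mature oligodendrocytes that build it, and they are the genes described here in the supraoptic nucleus of the lesser Egyptian jerboa, Jaculus jaculus. They were found by matching a list of 9 myelin gene symbols to the gene names in the authors' deposited table. That match gave 5 genes of the 29170 in the count table. Of the other 4 listed symbols, Mal was placed on an unnamed gene whose span overlaps the RefSeq gene in both directions (0.977 of the longer span). Opalin was placed less surely, on a gene that contains the whole RefSeq span but is longer (overlap 0.247), so values under that name are uncertain. Mal and Opalin are given beside the 5 and are in no count or mean of them, and Mbp and Mobp were not analysed here.

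Myelin is the stack of oligodendrocyte membrane wrapped around axons. It is compacted by a few abundant membrane proteins, sealed by tight junctions and held to the axon at the inner edge of the sheath, and its genes are switched on together when an oligodendrocyte matures. The supraoptic nucleus holds the magnocellular neurons that release vasopressin and oxytocin, and it lies against the optic tract, which is a myelinated tract. A bulk punch measures RNA from all the cells it holds, so fewer oligodendrocytes and less myelin RNA per oligodendrocyte cannot be told apart.

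The 29 polyA RNA libraries came from punches of the nucleus cut from frozen brain sections of singly housed animals with free access to dry food. In 10 Dehydrated animals (4 labelled male, 6 female) water was restricted for 11 days. In 9 Rehydrated animals (5 male, 4 female) it was restricted for 7 days and then freely given for 3 days. The 10 Control animals (5 male, 5 female) had water throughout, and no age or strain is given for any group. The design asks how the nucleus responds to water loss and what is regained once water returns. The Dehydrated and Rehydrated groups differ in the length of restriction as well as in the return of water.

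The libraries held 10797577 to 18856620 counts, and the 5 genes together took 0.0422% to 0.202% of a library's counts. A library named by letter and number keeps that name below. In Control F03, Control M05 and Dehydrated M02 the sex label and the letter of the name disagree. Control M01 stood apart from every other library on the first principal component (136.9 against -13.7 to 7.76). It and Control F03 also held the most counts on 2 repeat-rich contigs, 7.07% and 6.62%. Results are given without them for some of the values they bear on.

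The tissue label was checked against the magnocellular list. Avp, the vasopressin precursor, averaged 2089.6 CPM (read counts scaled to the size of the library) over the libraries and Oxt, the oxytocin precursor, 839 CPM. Avp ran from 201 to 5179 CPM and Oxt from 159 to 1975 CPM over the libraries. How much of the nucleus each punch held was not tested. In Dehydrated against Control, 22 of 17558 tested genes (0.125%) were under 0.05 adjusted by edgeR. Of the 10 listed magnocellular genes 4 rose, namely Avp, Pdyn, Pcsk1 and Caprin2. Their log2 fold changes were 1.81, 1.13, 1.39 and 0.98 (adjusted p of 0.00369 to 0.0388 by edgeR). The other 6 did not pass, and 2 of the 10 were below 0, among them Oxt (-0.07, adjusted p = 0.972 by edgeR).

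The level of each gene is compared between genes only per length, as CPM per kilobase of exon. Cnp, the cyclic nucleotide phosphodiesterase of the cytoplasmic channels of myelin, was at 189 ± 65.3 CPM per kilobase (SD, n = 29). Mag, the myelin-associated glycoprotein that faces the axon, was at 181 ± 60.5. These levels were not separated beyond the spread between libraries, with Cnp the higher in 20 of 29 libraries and a mean log2 ratio of 0.06 ± 0.14. Cldn11, the tight junction claudin of myelin, followed at 126 ± 67 CPM per kilobase and lay under Mag in 28 of 29 libraries. Ermn, an actin-binding protein of late oligodendrocytes, was at 80.5 ± 23.8, and Cldn11 was the higher in 25 of 29 libraries, though the log2 ratio of 0.55 ± 0.54 was about as large as its SD. Mog, a glycoprotein on the outermost face of the sheath, had the lowest level of the 5, at 60.6 ± 23.4.

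All 5 were well above the typical gene: 91.3% to 98.4% of the 17558 tested genes had a lower level per kilobase than Mog and Cnp, the lowest and the highest of the 5. The gene placed as Opalin, a sialylated oligodendrocyte membrane protein, was at 61.5 ± 16.9 CPM per kilobase, not separated from Mog, with the higher value in 16 of 29 libraries. Mal, a proteolipid of lipid-rich membrane, was at 6.93 ± 2.34 and below Mog in every one of the 29 libraries. The order rests partly on the gene models: the exonic lengths of Mog, Ermn, Cldn11 and Opalin are multiples of 3, as are those of 44.8% of the tested genes, so these may be coding lengths, without untranslated exons.

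Mag lies on chromosome 7 at 1453323 to 1466720, with 2114 bases of exon, and Mog on chromosome 8 at 1358280 to 1371143, with 837 bases. Cnp lies on chromosome 9 at 114143449 to 114153146 (2500 bases of exon). Cldn11 lies on chromosome 11 at 81180788 to 81202293 (1239 bases), and Ermn on chromosome 4 at 82457416 to 82461321 (837 bases), all on the mJacJac1 assembly as the count table gives them. The 5 genes thus sit on 5 different chromosomes, and no pair of them shares a locus.

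In the dehydrated nucleus the 5 myelin genes had lower mean levels than in Control, but none passed the test, and the groups overlapped in every gene. The difference was alike in Mag, Cnp, Cldn11 and, less so, Mog, whose mean CPM in Dehydrated animals was 69.1% to 81.7% of that in Control, and in Ermn it was near 0. In Dehydrated against Control, 0 of the 5 genes were called at an adjusted p under 0.05 by edgeR's quasi-likelihood test, where 22 of 17558 genes (0.125%) were called. The 5 log2 fold changes were all below 0, with a median of -0.36 beside -0.003 over all tested genes.

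Mag ran from 276.9 to 485 CPM with a median of 334 in the 10 Dehydrated libraries, against 288 to 694 CPM with a median of 453 in the 10 Control libraries. The groups overlap, yet 9 of 10 Dehydrated libraries lay below the Control median. The log2 fold change was -0.36 (SE 0.19, 95% interval -0.75 to 0.03, edgeR p = 0.0713, adjusted p = 0.785).

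Cnp spanned 331 to 703 CPM with a median of 401 in Dehydrated libraries, against 385 to 844 CPM with a median of 559 in Control libraries. Dehydrated F04 alone of its group was above the Control median, and it was the highest library of the group for all 5 genes. The log2 fold change of Cnp was -0.37 (SE 0.19, interval -0.75 to 0.01, edgeR p = 0.0565, adjusted p = 0.774).

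Cldn11 had the largest difference of the 5 and the widest spread. Its values were 96.4 to 295 CPM with a median of 123 in Dehydrated libraries, against 108 to 359 CPM with a median of 177 in Control libraries. The second highest Dehydrated library was at 167 CPM, under the Control median, so 9 of 10 again lay below it. The log2 fold change was -0.47 (SE 0.28, interval -1.05 to 0.11, adjusted p = 0.792 by edgeR).

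Mog was at 37.6 to 87.5 CPM with a median of 41.9 in Dehydrated libraries, against 36.2 to 91.6 CPM with a median of 56.3 in Control libraries. Its log2 fold change was -0.24 (SE 0.22, interval -0.69 to 0.21, adjusted p = 0.83 by edgeR). Ermn was close in the groups, at 48.8 to 94.2 CPM with a median of 64.3 in Dehydrated libraries, against 33 to 94.6 CPM with a median of 61.3 in Control libraries. Only 4 of 10 Dehydrated libraries were below the Control median of Ermn, and the log2 fold change was -0.04 (SE 0.20, interval -0.45 to 0.37, adjusted p = 0.975 by edgeR). These intervals leave room for a level in Dehydrated animals between 0.732 and 1.30 times that of Control for Ermn, and between 0.482 and 1.08 times for Cldn11.

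**Figure D1:**
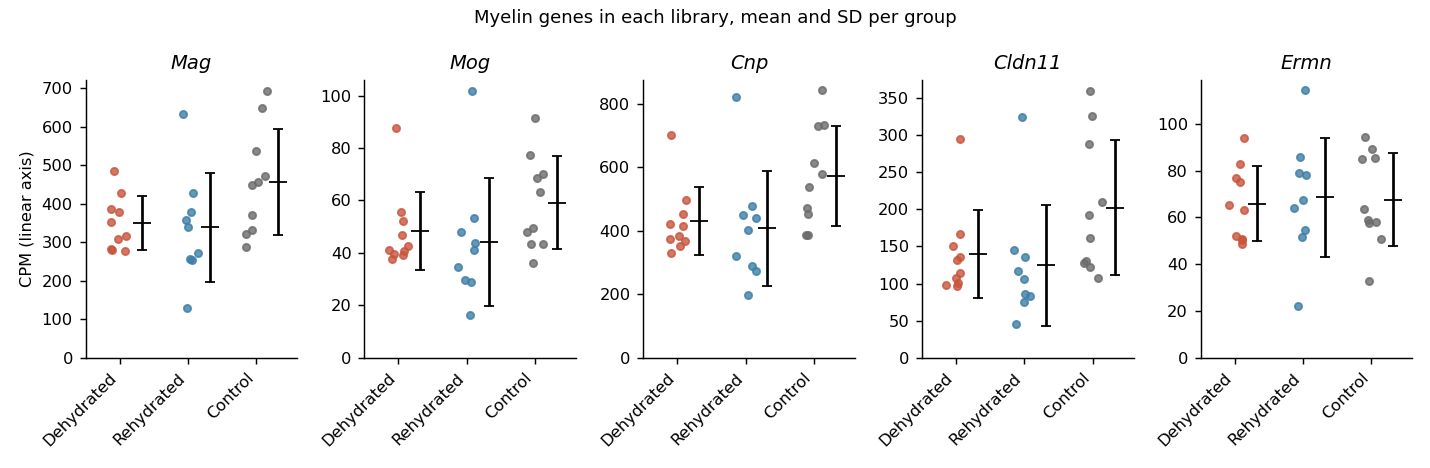
CPM (linear axis from 0) of Mag, Mog, Cnp, Cldn11 and Ermn in each library of the Dehydrated (n = 10), Rehydrated (n = 9) and Control (n = 10) groups; each point is a library, and the black bars show the mean and SD. In Mag, Mog, Cnp and Cldn11 most Dehydrated and Rehydrated points lie under the Control mean, with 1 high library in each of these groups, while the 3 means of Ermn are close, with the widest spread in Rehydrated.

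After 3 days with water again, Mag, Mog, Cnp and Cldn11 again had lower mean levels than in Control, and again none passed the test. In Rehydrated against Control, 0 of the 5 genes were called, where 0 of 17558 genes (0%) were called by edgeR. At an unadjusted p under 0.05 there were 1313 genes, 7.48% of those tested, and DESeq2 called 18 genes. Among the 5, Mag, Cnp and Cldn11 had an unadjusted p under 0.05. The median log2 fold change of the 5 was -0.45 beside 0.003 over all tested genes. The comparison shares its Control libraries with the one above, so the 2 are not independent.

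Cldn11 was at 45.7 to 324 CPM with a median of 105 in the 9 Rehydrated libraries, against 108 to 359 CPM with a median of 177 in Control libraries. The log2 fold change was -0.75 (SE 0.29, interval -1.34 to -0.15, edgeR p = 0.0163, adjusted p = 0.587). In 8 of 9 Rehydrated libraries Cldn11 was below the Control median, and the remaining library, M05, was above all but 2 of the Control libraries.

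Cnp was at 198.6 to 822 CPM with a median of 404 in Rehydrated libraries, against 385 to 844 CPM with a median of 559 in Control libraries. Its log2 fold change was -0.51 (SE 0.19, interval -0.90 to -0.12, edgeR p = 0.0119, adjusted p = 0.581). For Mag the values were 129.9 to 634 CPM with a median of 339 in Rehydrated libraries, against 288 to 694 CPM with a median of 453 in Control libraries. The log2 fold change of Mag was -0.45 (SE 0.20, interval -0.85 to -0.05, edgeR p = 0.0275, adjusted p = 0.621). Both genes again had 8 of 9 Rehydrated libraries below the Control median.

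Mog was at 16.2 to 102 CPM with a median of 40.9 in Rehydrated libraries, against 36.2 to 91.6 CPM with a median of 56.3 in Control libraries, a log2 fold change of -0.45 (SE 0.22, interval -0.91 to 0.01, adjusted p = 0.665 by edgeR). Ermn was at 22.3 to 114 CPM with a median of 67.3 in Rehydrated libraries, against 33 to 94.6 CPM with a median of 61.3 in Control libraries. Its log2 fold change was 0.02 (SE 0.21, interval -0.40 to 0.45, adjusted p = 0.983 by edgeR), and 3 of 9 Rehydrated libraries were below the Control median.

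Rehydrated and Dehydrated animals were close in all 5 genes. In Rehydrated against Dehydrated, 0 of the 5 were called, where 4 of 17558 genes (0.0228%) were called. The log2 fold changes ran from -0.27 for Cldn11 to 0.06 for Ermn, with a median of -0.14 beside 0.004 over all tested genes, and every adjusted p was 0.9999. Without Dehydrated F04 that median was -0.03, and without Rehydrated M05 it was -0.30. The 95% intervals were -0.50 to 0.31 for Mag, -0.54 to 0.25 for Cnp, -0.68 to 0.25 for Mog, -0.88 to 0.34 for Cldn11 and -0.37 to 0.49 for Ermn. In Mag, Mog, Cnp and Cldn11 the Rehydrated mean was no nearer to the Control mean than the Dehydrated mean was. The data leave room for changes of either direction inside those intervals.

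The 2 genes placed by position did not pass in any comparison either. Mal was at 7.45 to 16.5 CPM in Dehydrated, 3.07 to 17.2 CPM in Rehydrated and 5.67 to 19.2 CPM in Control libraries. Its log2 fold change was -0.29 (SE 0.20, adjusted p = 0.803) in Dehydrated against Control and -0.58 (SE 0.21, adjusted p = 0.571) in Rehydrated against Control, by edgeR. Opalin was level in Dehydrated against Control (0.02, SE 0.17) and had a log2 fold change of -0.34 (SE 0.18, adjusted p = 0.685) in Rehydrated against Control. The interval in Rehydrated against Dehydrated was -0.72 to 0.01 for Opalin.

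The authors' deposited table, made with DESeq2, gave the same picture for these genes: 0 of the 5 were under 0.05 adjusted in either comparison, where it lists 46 genes for Dehydrated and 4 for Rehydrated against Control. Its log2 fold changes for Cldn11 were -0.51 (adjusted p = 0.866) in Dehydrated against Control and -0.80 (adjusted p = 0.391) in Rehydrated against Control.

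**Figure D2:**
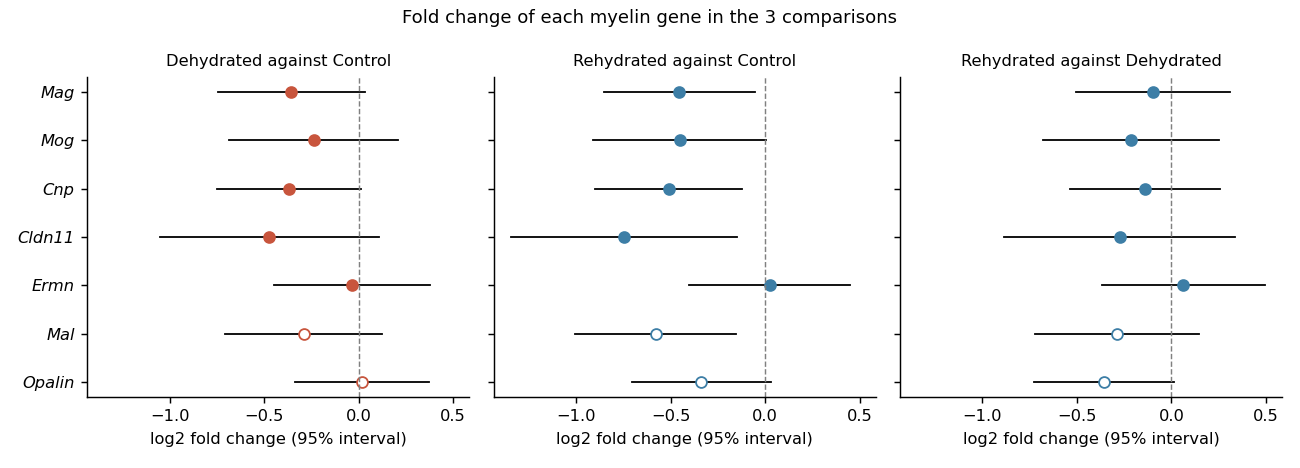
Log2 fold change (point) and its 95% interval (line) for each gene in Dehydrated against Control, Rehydrated against Control and Rehydrated against Dehydrated, from edgeR; open points are Mal and Opalin, placed by position. The points of Mag, Mog, Cnp and Cldn11 lie left of 0 in each panel, from -0.10 to -0.75, and Ermn lies within 0.06 of 0 in all 3.

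Single libraries carried part of these differences. Without Control F03, which held the highest Control values of Mag, Mog, Cnp and Cldn11, the log2 fold change of Cldn11 was -0.38 in Dehydrated and -0.63 in Rehydrated against Control. Without Rehydrated M05 it was -1.03 in Rehydrated against Control, and without Rehydrated F05 it was -0.63. Without Dehydrated F04 it was -0.69 in Dehydrated against Control. Without Control M01 and Control F03 together, the median log2 fold change of the 5 genes was -0.28 in Dehydrated and -0.43 in Rehydrated against Control. The sign of Ermn depended on the library left out, with values of 0.00 to 0.03 in Dehydrated against Control in 6 of the 29 fits and -0.10 to -0.002 in Rehydrated against Control in 6 of 29.

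Animals of a group differed widely. The mean log2 CPM of the 5 genes was 7.15 ± 0.34 in Dehydrated (SD, n = 10), 6.98 ± 0.66 in Rehydrated (n = 9) and 7.46 ± 0.42 in Control libraries (n = 10). It ran from 6.84 to 7.92 in Dehydrated, from 5.74 to 8.17 in Rehydrated and from 6.94 to 8.12 in Control libraries. The Rehydrated group thus held both the lowest library of the study, F05, and the highest, M05. Group accounted for 15.6% of the variance of this mean over the 29 libraries. Gene by gene the share was 23.7% for Cnp, 22% for Cldn11, 18.2% for Mag, 15.8% for Mog and 0.0698% for Ermn. These shares were not tested, and some share above 0 arises even where groups do not differ.

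Without Rehydrated F05 and M05 the Rehydrated mean was 6.99 ± 0.29 (SD, n = 7), against 7.46 ± 0.42 in Control libraries, so the extreme pair widened the spread and left the mean in place. Rehydrated F05 was the lowest of its group for all 5 genes and for Mal and Opalin as well, and Rehydrated M05 was the highest for all 7. Rehydrated F05 held 14942810 counts and 20315 detected genes. Rehydrated M05 held 18011748 counts and 21346 detected genes, the second most of the study, with the smallest share on the repeat-rich contigs (0.329%) and the highest mean of the endothelial list (5.15 log2 CPM). The part of these measures in the levels was not tested.

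The range over all libraries was 4.25-fold for Cnp, 5.13-fold for Ermn, 5.34-fold for Mag, 6.28-fold for Mog and 7.85-fold for Cldn11. The biological coefficient of variation, edgeR's estimate of the spread between animals of a group beyond counting error, was 42.6% for Cldn11, where the median was 12.4% over the 1455 tested genes within 0.5 log2 CPM of it. For Cldn11, 99.7% of those genes had a smaller one. Mag (29.3%), Mog (33.3%), Cnp (28.6%) and Ermn (31.1%) also exceeded 94.4% to 98.9% of the genes at their own level. The counts behind these values were 248 or more in every library, which bounds the counting error behind them.

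**Figure D3:**
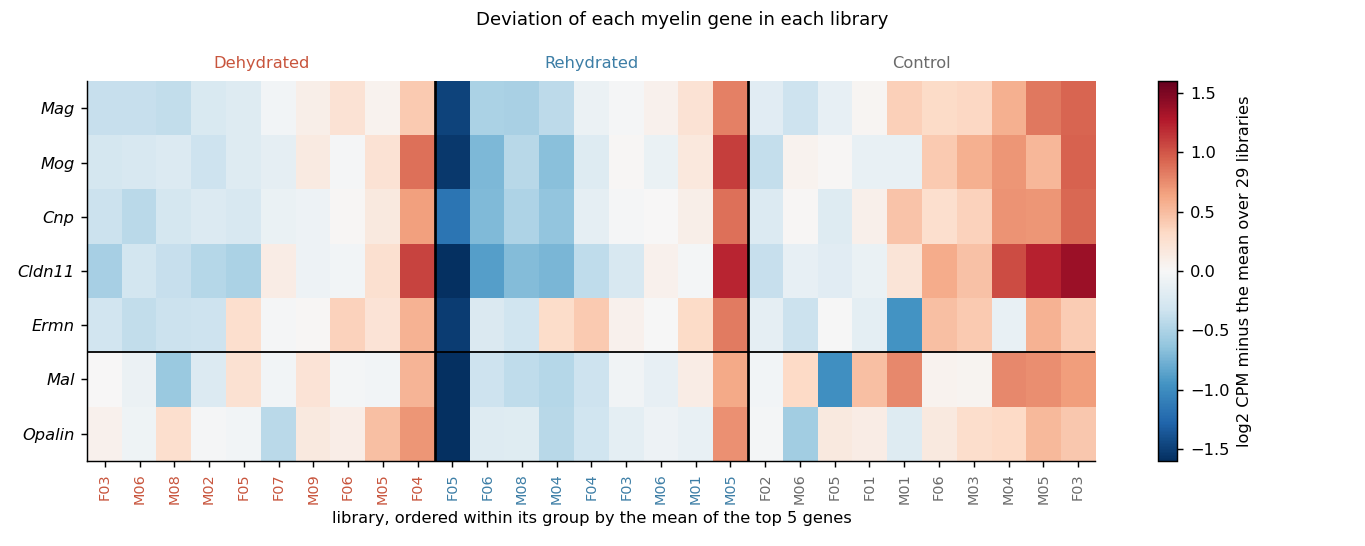
Log2 CPM of each gene in each library minus that gene's mean over the 29 libraries, with the libraries of Dehydrated, Rehydrated and Control ordered within the group by the mean of the top 5 genes; Mal and Opalin are under the line. Colours end at 1.6, beyond which 3 values lie, the lowest at -1.83. Columns tend to be of 1 colour from Mag to Cldn11, with Rehydrated F05 the lowest and Rehydrated M05 and Control F03 among the highest, and Control M01 is dark blue in Ermn alone of the 5.

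Mag, Mog, Cnp and Cldn11 went up and down together from library to library. Over the 29 libraries the 6 pairs among them had Pearson's r of 0.92 to 0.97 and Spearman's rho of 0.89 to 0.95 for log2 CPM, with a largest Benjamini-Hochberg adjusted permutation p of 1.67e-05 over the 10 pairs of the 5 genes. With the 2 libraries farthest from the median of the first gene of each pair left out, r was 0.86 to 0.96. The first gene is taken in the order Mag, Mog, Cnp, Cldn11, so the libraries left out can differ between pairs. Within groups, after each group's mean was taken off, r was 0.91 to 0.96, close to the values before.

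Ermn followed the other 4 less closely, with r of 0.60 to 0.73 and rho of 0.57 to 0.66 (largest adjusted permutation p = 0.0015). Without the 2 libraries farthest from the median of the other gene, not of Ermn, r was 0.42 to 0.53, and within groups it was 0.67 to 0.78. All pairs share the same libraries and scaling. Relative to the mean log2 CPM of the other 4, Ermn stood at -1.42 ± 0.22 in Dehydrated (SD, n = 10), -1.24 ± 0.35 in Rehydrated (n = 9) and -1.80 ± 0.46 in Control libraries (n = 10). The medians were -1.48, -1.31 and -1.68 in these groups. These means and medians were computed after the values were seen and were not tested. The lowest library was Control M01, at -2.68. Ermn was 33 CPM there, the lowest of the Control group, while the other 4 genes were inside the Control range. Neither the Control mean nor the correlations of Ermn are given here without that library.

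**Figure D4:**
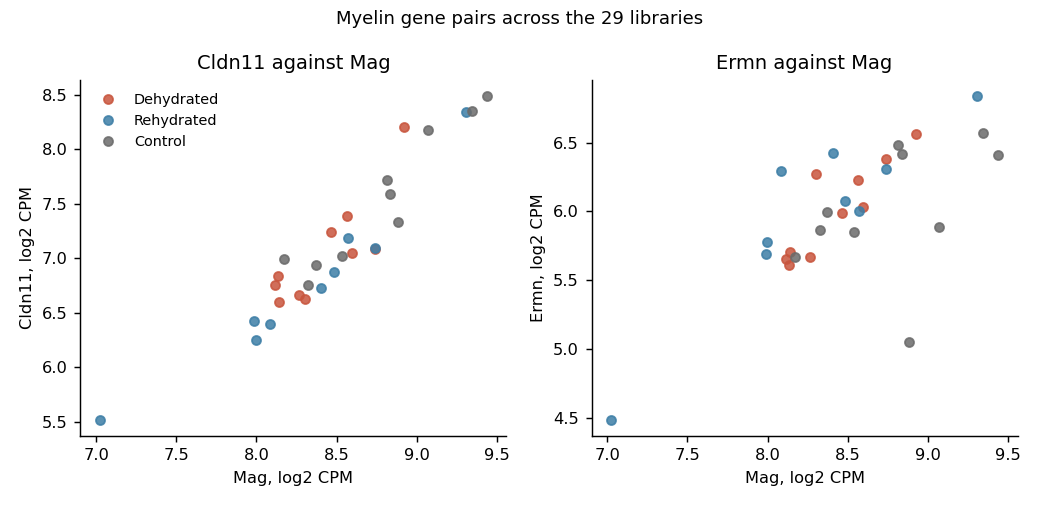
Cldn11 and Ermn (log2 CPM) against Mag (log2 CPM), 1 point per library, coloured by Dehydrated, Rehydrated and Control. Cldn11 keeps close to a line with Mag over the whole range, while Ermn scatters, with Rehydrated F05 at the lower left of both panels and Control M01 far below the other libraries with a like level of Mag.

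Sex was examined as a difference between the responses. In Dehydrated against Control the male response minus the female response was below 0 for each of the 5 genes, from -0.50 to -0.02, and in Rehydrated against Control it was above 0 for each, from 0.16 to 0.64. None of the 5 was called in either test, where 0 of 17558 genes (0%) were called in each, with 1063 and 1085 genes at an unadjusted p under 0.05. DESeq2 called 2 and 0 genes. The adjusted p of the 5 genes was 0.861 to 0.999 in the first test and 0.816 to 0.953 in the second, by edgeR. The means behind these values were, on the log2 CPM scale, 7.09 ± 0.26 in Dehydrated males (SD, n = 4), 7.24 ± 0.59 in Rehydrated males (n = 5) and 7.56 ± 0.43 in Control males (n = 5). In females they were 7.19 ± 0.40 in Dehydrated (n = 6), 6.65 ± 0.66 in Rehydrated (n = 4) and 7.36 ± 0.43 in Control (n = 5).

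In Rehydrated against Dehydrated the difference of this mean was 0.15 among males and -0.54 among females by label. By the letter of the name it was 0.20 among M libraries and -0.60 among F libraries. The highest Rehydrated library, M05, is male and the lowest, F05, female. That contrast between the sexes was not tested.

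The other genes of the pathway were read from 4 lists, and 0 of their genes were called in any of the 3 comparisons. Of 30 tested genes for other myelin proteins, 22 were below 0 in Dehydrated against Control and 26 in Rehydrated against Control. Their median log2 fold changes were -0.13 and -0.22, beside -0.003 and 0.003 over all tested genes. Such counts for lists of other cells are given further below. Tmem125, a membrane protein, had the smallest p of the list in Dehydrated against Control, with 14.6 ± 5.03 CPM in Dehydrated (SD, n = 10), 15.7 ± 9.48 CPM in Rehydrated (n = 9) and 26.9 ± 10.7 CPM in Control libraries (n = 10). Its log2 fold change was -0.86 (SE 0.26, adjusted p = 0.461 by edgeR) in Dehydrated against Control. Next in that order came Bcas1 (log2 fold change -0.37), Sirt2, a deacetylase (-0.22), and Plekhb1 (-0.28).

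Of 9 tested enzymes of myelin lipid, 8 were below 0 in Dehydrated against Control (median -0.21) and 8 in Rehydrated against Control (median -0.19). Fa2h, which hydroxylates the fatty acids of myelin galactolipid, had log2 fold changes of -0.40 (SE 0.26) and -0.42 (SE 0.27) in these comparisons. Hmgcs1, of cholesterol synthesis, was at -0.21 and -0.20, Elovl1, a fatty acid elongase, at -0.30 and -0.19, and Gal3st1, the sulfatide synthase, at -0.27 and -0.35.

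Of 10 transcription factors of the lineage, 7 were below 0 in Dehydrated against Control (median -0.17) and 8 in Rehydrated against Control (median -0.25). Znf488 had the smallest p in Dehydrated against Control, at 7.44 ± 1.44 CPM in Dehydrated and 12.2 ± 4.64 CPM in Control libraries (SD, n = 10 each), a log2 fold change of -0.64 (SE 0.21, adjusted p = 0.545 by edgeR). Sox10, which drives oligodendrocyte genes at all stages, was at -0.21 in Dehydrated and -0.32 in Rehydrated against Control. Sox8 (-0.21 and -0.25) and Olig1 (-0.19 and -0.33) had like values. Myrf, the factor that switches on myelin genes, was at 0.06 and -0.08, and it is named here after its values were seen.

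The list for progenitors and newly formed oligodendrocytes differed from these in its middle: 8 of 14 genes were below 0 in Dehydrated against Control (median -0.02) and 4 of 14 in Rehydrated against Control (median 0.05). Its 2 lowest genes were Enpp6 and Gpr17, which mark cells that have just left the progenitor stage. Enpp6 was at 0.567 to 2.63 CPM in Dehydrated, 0.163 to 9.38 CPM in Rehydrated and 1.58 to 19.6 CPM in Control libraries. Its log2 fold change was -2.28 (SE 0.52, adjusted p = 0.0767) in Dehydrated and -2.06 (SE 0.52, adjusted p = 0.37) in Rehydrated against Control, by edgeR. Gpr17 was at -0.62 (SE 0.23, adjusted p = 0.633 by edgeR) in Dehydrated against Control. Cspg5 and Neu4, the next by p, were at -0.10 and -0.14. Bmp4 (-0.20 in Dehydrated and 0.31 in Rehydrated against Control) and Itpr2 (-0.03 and 0.06), of the same list, did not share the values of Enpp6 and Gpr17. They are named here after their values were seen. Whether newly formed cells changed in number was not tested.

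**Figure D5:**
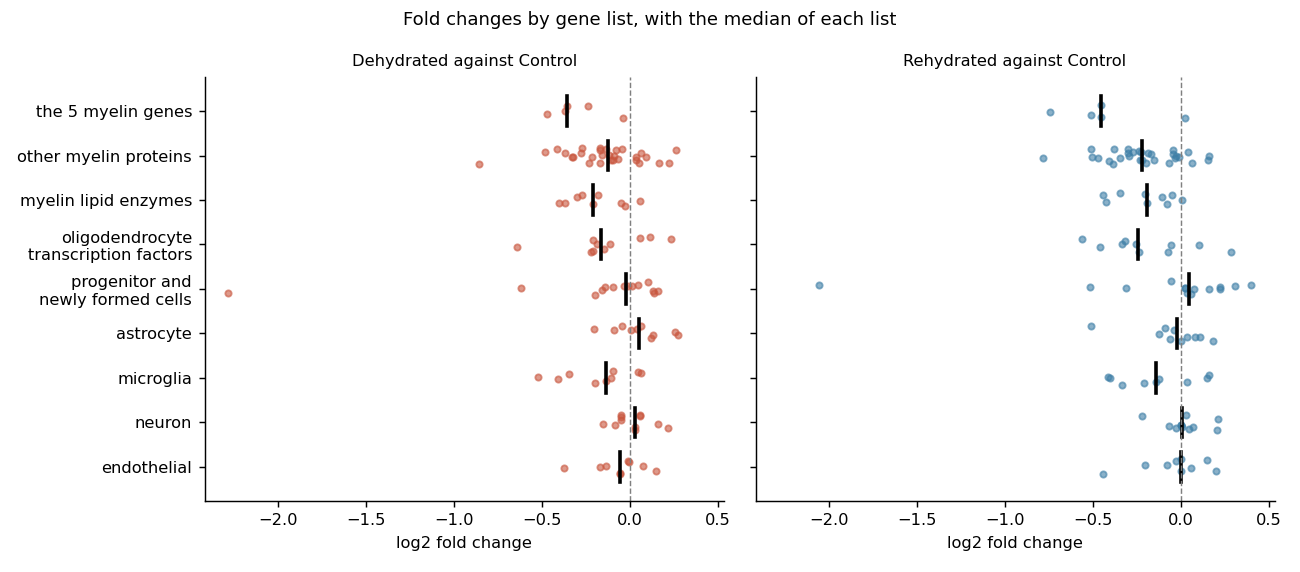
Log2 fold changes of the genes of each list (points, 1 per gene, from edgeR) with the list's median (black bar), in Dehydrated against Control and Rehydrated against Control. The medians of the oligodendrocyte lists lie left of 0, except that of progenitor and newly formed cells in Rehydrated against Control (0.05). Those of microglia (-0.14 in both panels) and endothelium (-0.06 and -0.001) lie left of 0 as well. The astrocyte medians are 0.05 and -0.02, and the neuron medians 0.03 and 0.005. The medians of the 5 myelin genes, -0.36 and -0.45, lie farthest left.

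Genes with the most similar pattern over the 29 libraries were ranked by Spearman's rho with the mean log2 CPM of the 5, among 12190 named genes. Adamts4, a protease of the extracellular matrix, was first with rho of 0.95, and Fa2h (0.94) and Gpr37 (0.92) were among the next. Dbndd2, Klk6, Tmem88b and Cmtm5 came next with 0.89 each, and then Ugt8a, the galactolipid synthase, and Sox10 with 0.88 each. The lists of other myelin proteins, lipid enzymes and lineage factors hold 7 of the 10 most similar genes. These lists had 30, 9 and 10 tested genes, beside the 12190 named genes compared. They were chosen with earlier results of these data known, so the count of 7 is not independent support. Of all tested genes the median rho was -0.01 and 95% lay between -0.43 and 0.51. Mal reached 0.72 and Opalin 0.68. The 10 did not pass in any comparison, and in Dehydrated against Control their log2 fold changes ran from -0.48 for Adamts4 to -0.07 for Gpr37. The genes of the most opposite pattern were Frmpd4 (rho -0.72), Rasgrp1 (-0.71), St6galnac2 (-0.70), Chrm5 (-0.67) and Arhgap12 (-0.66), and they did not pass either.

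Genes of other cells were set beside the myelin genes over the same 29 libraries. The mean log2 CPM of the myelin protein, lipid enzyme and lineage factor lists followed the mean of the 5 with r of 0.95, 0.97 and 0.89 (adjusted permutation p = 4.67e-05 each, over 14 relations). For the progenitor list r was 0.52 (adjusted permutation p = 0.0174) and rho 0.44 (adjusted p = 0.0595), and r was 0.57 without the 2 farthest libraries. The 2 farthest are here those farthest from the median of the list or measure itself, so they can differ between relations. The lists for astrocytes (r = 0.05), microglia (0.17), neurons (-0.26), magnocellular neurons (0.04) and endothelium (0.30) had adjusted permutation p of 0.28 or more. The ependymal and choroid list had r of -0.50 (adjusted permutation p = 0.0174) and rho of -0.31 (adjusted p = 0.245), and r was -0.18 without the 2 farthest libraries, so the relation rests on those. Total counts, detected genes, mitochondrial share and repeat share had r of -0.05 to 0.23, with adjusted permutation p of 0.333 or more. Without the 2 farthest libraries r was 0.40 for detected genes and 0.31 for total counts, and within groups it was 0.34 for both.

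By group, the summed astrocyte list spanned 3531 to 4536 CPM in Dehydrated, 3325 to 4781 CPM in Rehydrated and 3049.5 to 5268 CPM in Control libraries. The neuron list spanned 7585 to 8515 CPM in Dehydrated, 7343 to 9629 CPM in Rehydrated and 7346 to 8995 CPM in Control libraries. The microglia list spanned 156 to 226 CPM, 173 to 267 CPM and 159 to 503 CPM in these groups, with medians of 191, 189 and 190 CPM. Its mean log2 CPM was highest in Control M01, at 5.14, beside 4.30 in Rehydrated M05, the next. Of the astrocyte, neuron and microglia genes, and of 9 endothelial genes, 0 were called in any comparison. Of 5 ependymal and choroid genes 1 was called, Kl, which rose in Dehydrated against Control with a log2 fold change of 1.74 (adjusted p = 0.0476 by edgeR). In that comparison 2 of the 5 were below 0, and 22 of 17558 tested genes (0.125%) were called. Of the Schwann cell list, 0 of the 2 tested genes were called in any comparison. In Dehydrated against Control, 7 of 9 microglia, 7 of 9 endothelial, 3 of 10 astrocyte and 5 of 11 neuron genes were below 0. In Rehydrated against Control these counts were 6 of 9, 6 of 9, 5 of 10 and 4 of 11. The part that cell composition has in the levels of the 5 genes was not tested.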

How the data were processed

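RNA from supraoptic nucleus punches was sequenced as 29 libraries. The deposited gene table holds raw fragment counts. Per the file headers, featureCounts 1.6.2 made them in paired-end mode with a GTF of 2022 on the mJacJac1 assembly, and no strand option is set, so reads of overlapping genes on opposite strands cannot be told apart. The aligner was not stated in anything read here. Deposited comparison tables of the authors hold log2 fold changes with their standard errors, and p-values with adjusted p-values, from DESeq2 per the submitters' processing notes; 56 further columns of values per library in them were not used. Gene names came from those tables (9699 genes) or, where they give none, from RefSeq genes whose span overlaps by at least 0.5 (5594 genes).

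Counts were filtered with filterByExpr (17558 genes kept; the 11612 others held 0.126% of counts), scaled by TMM and fitted with edgeR 4.0.16 (R 4.3.3), with all 3 groups and the sex label as covariate, on 25 residual degrees of freedom. Genes with a Benjamini-Hochberg adjusted p under 0.05, over all 17558 genes, were called. CPM carry the TMM scaling, log2 CPM a prior count of 2. On counts simulated for the 17558 genes of Dehydrated against Control, the test recovered 49 of 100 genes changed by 0.4 log2 and 88 of 100 changed by 0.8, with 8 false calls. These rates do not carry over to Mag, Mog, Cnp, Cldn11 and Ermn, which varied more than most genes of their level. Their SE in that comparison was 0.19 to 0.28, beside a median of 0.123 over all tested genes. Recovery of genes with such a spread was not tested. DESeq2 1.42.0, other scalings, filters, covariates and library sets were alternatives. Correlations used 100000 permutations.

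The 5 genes, the gene lists and the tests were chosen with earlier results of these data known. All listed symbols are named; from each oligodendrocyte list the genes past the threshold, otherwise up to 4 of smallest p in Dehydrated against Control; and the 10 most and 5 least similar genes by Spearman's rho, of which 1 is not reported here. Other lists are given by their counts, sums and genes past the threshold. All 126 pairs of libraries within groups differed by more than sampling noise (chi-square per degree of freedom of 8.52 or more). Nothing states how libraries map to animals beyond their names, so p-values measure the spread between libraries. Libraries of 2 groups that share a name deviated together little or not at all (19 pairs, r of -0.12 to 0.11, 2 over 0.1), so names were not taken as pairs. Both values over 0.1 were among the 7 such pairs of Dehydrated and Rehydrated libraries, with a median r of 0.085. The 83 other pairs of those groups had a median of 0.006, 5 over 0.1 and a highest r of 0.22. Depth was 10797577 to 18856620 counts, and intervals are at 95%.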

Additional observations from a re-analysis of the deposited data

Results flagged for a closer look

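In 24 sets of values (the 5 myelin genes, Mal, Opalin and the mean of the 5, in each of the 3 groups), 8 held a library whose gap to its neighbour took more of the group's range than Dixon's 95% critical value. Chance alone gives about 1 in 20 for normally distributed values, which linear CPM need not be. The genes are also not independent, since they rise and fall together between libraries. All 8 came from 2 libraries, each the highest of its group. Dehydrated F04 stood apart for Mog (87.5 CPM), Cnp (703 CPM), Cldn11 (295 CPM) and the mean log2 CPM of the 5 genes (7.92). Rehydrated M05 stood apart for Mog (102 CPM), Cnp (822 CPM), Cldn11 (324 CPM) and Opalin (46.5 CPM). Single genes were examined on linear CPM, and only the mean of the 5 on log2 CPM. For that mean M05 was not past the critical value (gap over range 0.335, critical value 0.493). Rehydrated F05, at the low end, had a gap over range of 0.352. Whether the flags of single genes hold on log2 CPM was not tested. Without F04 the median log2 fold change of the 5 genes in Dehydrated against Control was -0.43, beside -0.36 with it. Without M05 it was -0.68 in Rehydrated against Control, beside -0.45 with it, and 2 genes of the whole table were then called there, beside 0 with it. What sets these libraries apart was not tested.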

How the results depend on the processing

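No member passed the test under any of the 1040 alternative values of the 25 member results (lowest adjusted p 0.289, Cnp and Cldn11 in Rehydrated against Control without Rehydrated M05), and 996 of them kept their direction. The differences of mean log2 CPM moved by less than the SD within groups (0.48) under every alternative run. That SD is wide beside the differences, so the bound does not show that they were stable. In Rehydrated against Dehydrated the difference changed sign, from -0.60 with F in the name to 0.20 with M in the name. With Mal and Opalin added, chosen after seeing the data, the differences were -0.26, -0.48 and -0.22 in Dehydrated against Control, Rehydrated against Control and Rehydrated against Dehydrated. The cause of the changes below was not tested. Each of the 5 genes had 248 or more counts in every library.

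Of all genes, 22, 0 and 4 were called in those comparisons. DESeq2 called 39, 18 and 13, and without Control M01 (chosen after seeing the data) 40, 3 and 16. Only the compared groups gave 11, 0 and 1. Without Control M01 and Control F03 12 were called in Dehydrated against Control. Males by label gave 0, 0 and 1, females 0, 2 and 0, libraries with M in the name 13, 0 and 0, and those with F 0, 0 and 0. The male minus female response in Dehydrated against Control, with 0 called, had 2 by DESeq2, 3 without Control M01 and 9 with the name letter as covariate. That response has no value from the block, the fit without covariate or the fits of 1 sex or letter. Leaving out each library gave 10 to 27, 0 to 2 and 2 to 9. In Dehydrated against Control the count of 10 came in 3 fits (without Dehydrated M06, Control F01 or Control M03) and 27 without Dehydrated F07. In Rehydrated against Control 2 came without Rehydrated M05. In Rehydrated against Dehydrated 18 of the 29 fits gave 2, and 9 came without Dehydrated F07. With replicate names as a block, with little evidence of pairing, 15, 0 and 7 were called and Ermn was at 0.0063 in Dehydrated against Control.

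Ermn changed sign in Dehydrated against Control with F in the name (0.065), and its leave-one-out range was -0.11 to 0.033. In Rehydrated against Control it did so without Control M01 and Control F03 (-0.026), in females (-0.33), with F in the name (-0.30) and by DESeq2 without Control M01 (-0.064), with a leave-one-out range of -0.099 to 0.16. In Rehydrated against Dehydrated it was -0.28 in females and -0.36 with F in the name (leave-one-out -0.054 to 0.21). There, males by label and libraries with M in the name gave 0.25 and 0.27 for Mag (leave-one-out -0.23 to 0.028), 0.16 and 0.23 for Mog, 0.21 and 0.23 for Cnp, 0.25 and 0.32 for Cldn11, and 0.098 and 0.13 for Mal. In Dehydrated against Control Mal was 0.032 with F in the name. Opalin was -0.0013 without Control M01 and Control F03, -0.084 in females, -0.040 with F in the name and -0.023 by DESeq2 without Control M01 (leave-one-out -0.073 to 0.082). For the male minus female response the sign changed only among leave-one-out fits, which ran from -0.17 to 0.12 for Ermn in Dehydrated against Control and, in Rehydrated against Control, from -0.084 to 0.52 for Mog, -0.14 to 0.33 for Cnp and -0.15 to 0.31 for Mal. Of the 10 most similar genes, 5 were shared when deviations from group means were used.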
